A study of Mus musculus with 21 samples.

Results

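miR-375 is a microRNA (miRNA) made from the single mouse gene *Mir375*, whose hairpin gives a strand from each arm, miR-375-3p and miR-375-5p. Every miRNA whose name, without its species prefix, begins with miR-375 was taken from the tables of small-RNA-seq of the female mouse pituitary. The rule found 2 of the 1909 miRNAs listed for virgin females and 2 of the 1841 listed for females of a breeding trial, the same 2 arms in both cohorts.

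miRNAs guide Argonaute proteins to mRNAs that pair with their seed, a short stretch near the 5′ end, and these mRNAs are then repressed. One strand of the hairpin is usually loaded as the guide, while its partner, the passenger strand, is mostly degraded. miR-375 is known as a miRNA of endocrine cells, first studied in pancreatic islets, where it restrains insulin secretion and is needed for normal numbers of hormone-producing cells.

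The study asked what follows when *Zeb1*, which encodes a transcriptional repressor, escapes repression by miR-200a/b. Zeb1_200M mice are homozygous and Zeb1_200H mice heterozygous for a knock-in *Zeb1* allele whose miR-200a/b sites are mutated, and WT mice carry no such allele. All were C57BL/6J females, and the allele is present in every cell of the animal. Both cohorts were collected at proestrus. The virgin cohort, 8–12 weeks old, gave 3 WT, 4 Zeb1_200H and 4 Zeb1_200M libraries, and the breeding trial cohort, 28–36 weeks old, gave 4 WT, 3 Zeb1_200H and 3 Zeb1_200M libraries. The study's methods state that tissue replicates came from different mice, while the labels only number them. Whole pituitaries were used, and fewer endocrine cells cannot be told apart from less miR-375 per cell.

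In the virgin cohort, Zeb1_200H libraries held 8551806 to 10266419 counted miRNA reads and Zeb1_200M libraries 8502878 to 10515664. WT replicates 2 and 4 held 10806313 and 9029142 reads, but WT replicate 1 held 3816917. That library stood apart in other ways: 836 miRNAs were detected in it, against 1040 to 1079 in the other virgin libraries, and its TMM scaling factor, a correction for library composition, was 0.632 in the comparison with Zeb1_200M, where those of WT replicates 2 and 4 were 0.979 and 1.01. The main virgin comparisons with WT are therefore also given without it. The breeding trial libraries were much shallower, with 60037 to 191650 counted reads. The cohorts also differed in age, breeding, RNA input, sequencer and miRNA dictionary, which cannot be told apart.

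In the mouse genome build GRCm38, *Mir375* (ENSMUSG00000065616) lies on the minus strand of chromosome 1, from 74900658 to 74900721. The GENCODE annotation places it between genes, in no exon or intron of another gene. The nearest gene on either side is the protein-coding *Cfap65*, 1349 bp away on the same strand, followed by the antisense transcript *Gm15841*, 1649 bp away on the plus strand. On the other side, *Cryba2*, which encodes a lens crystallin, ends 7514 bp from the hairpin on the same strand. The hairpin of 64 nt is shown because it is the source of both arms, with the miR-375-5p arm (bases 5 to 26) in capitals, from RefSeq (GRCm38.p6), chr1:74900658-74900721:
*Mir375* hairpin: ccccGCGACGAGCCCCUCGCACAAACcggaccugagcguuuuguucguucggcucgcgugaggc

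The mature miR-375-5p is shown with miR-7a-5p and miR-7b-5p, the endocrine miRNAs to which miR-375-3p is compared here. All 3 were found in RefSeq (GRCm38.p6), and capitals mark the seed, bases 2 to 8. miR-7a-5p and miR-7b-5p shared a seed, whereas 0 others of the 1679 mature sequences in the RefSeq list had the seed of miR-375-5p.
miR-375-5p: gCGACGAGccccucgcacaaac
miR-7a-5p: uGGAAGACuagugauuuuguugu
miR-7b-5p: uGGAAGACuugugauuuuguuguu
Reads had been assigned by their first 19 nt (virgin) or 18 nt (breeding trial), and 0 other mature sequences in that list shared either stretch with miR-375-5p. The mature sequence of miR-375-3p was not used here, so this was not checked for that arm.

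miR-375-3p was among the most abundant miRNAs in every library. It ranked second of all miRNAs in all 11 virgin libraries. In the breeding trial cohort it ranked first in WT replicates 2 and 3 and in Zeb1_200M replicate 2, and second in the other 7 libraries. By mean WT level, only miR-7a-5p was more abundant in virgin females, at 14.0% ± 3.79 of counted reads (SD, n = 3) against 11.9% ± 2.29 for miR-375-3p. In the breeding trial cohort the order was the opposite, with 12.8% ± 1.28 for miR-375-3p and 12.2% ± 1.37 for miR-7a-5p (SD, n = 4). Both differences were smaller than the SD between libraries. Within libraries, however, miR-7a-5p was above miR-375-3p in each virgin WT library (replicates 1, 2 and 4). In WT of the breeding trial it was above in replicates 1 and 4 and below in replicates 2 and 3. With virgin WT replicate 1 left out, the virgin difference was larger than the SD, with means of 11.8% ± 0.0246 for miR-7a-5p and 10.6% ± 0.339 for miR-375-3p (SD, n = 2). miR-7a-5p is likewise known from endocrine cells.

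Among virgin WT females, miR-375-3p had 554057, 1117364 and 976844 reads in replicates 1, 2 and 4, which was 14.5%, 10.3% and 10.8% of counted reads. In Zeb1_200H replicates 1 to 4 it had 869080, 834999, 977576 and 690322 reads, or 8.47%, 8.61%, 9.70% and 8.07%. In Zeb1_200M replicates 1 to 4 it had 864887, 730506, 654919 and 970067 reads, or 8.22%, 7.68%, 7.70% and 9.45%. WT replicate 1 was well above the other WT libraries, and all 8 mutant libraries lay below the lowest WT library, while both mutant genotypes overlapped.

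In WT females of the breeding trial, miR-375-3p had 19009, 16352, 11031 and 21722 reads in replicates 1 to 4, or 12.3%, 14.4%, 13.1% and 11.3% of counted reads. In Zeb1_200H replicates 1, 3 and 4 it had 10208, 6106 and 12161 reads, or 9.28%, 10.2% and 9.26%. In Zeb1_200M replicates 1, 2 and 3 it had 7888, 13387 and 11616 reads, or 9.00%, 10.8% and 9.46%. Again no mutant library reached the lowest WT library, and both mutant genotypes overlapped. Counting error was small beside these differences: in the shallowest library, Zeb1_200H replicate 3, the exact 95% binomial (Clopper-Pearson) interval ran from 9.93% to 10.4%. Such intervals cover counting error only.

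**Figure D1:**
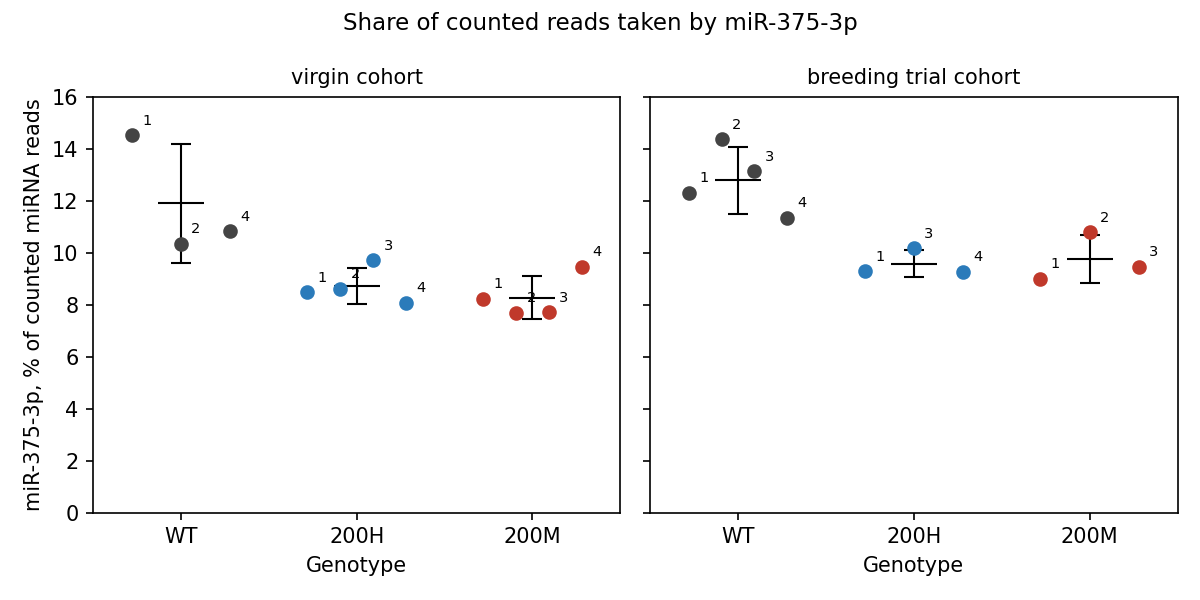
Share of counted miRNA reads taken by miR-375-3p (y axis, %) in each library, by genotype (x axis) in the virgin (left) and breeding trial (right) cohorts. Points are libraries with their replicate numbers, and bars give the mean and SD of each group. All mutant libraries lie below all WT libraries of their cohort.

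Ordered by mean share, miR-375-3p was highest in WT of the breeding trial (12.8% ± 1.28, n = 4), then virgin WT (11.9% ± 2.29, n = 3), Zeb1_200M of the breeding trial (9.75% ± 0.925, n = 3), Zeb1_200H of the breeding trial (9.57% ± 0.520, n = 3), virgin Zeb1_200H (8.71% ± 0.695, n = 4) and virgin Zeb1_200M (8.27% ± 0.831, n = 4). With all libraries, the ranges of all 5 neighbouring pairs in this order overlapped. The overlap of the first pair rested on virgin WT replicate 1, at 14.5%. Virgin WT replicates 2 and 4, at 10.3% and 10.8%, lay below all WT libraries of the breeding trial, the lowest of which was at 11.3%. The cohorts were counted against different dictionaries, so the order across them is a description.

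Against virgin WT, the mean share of miR-375-3p was 30.5% lower in Zeb1_200M and 26.7% lower in Zeb1_200H. Against WT of the breeding trial, it was 23.7% lower in Zeb1_200M and 25.1% lower in Zeb1_200H. In each of these 4 comparisons the groups did not overlap, and the two-sided exact permutation test gave p = 0.0571 (0.0857 after Benjamini-Hochberg adjustment over the 6 comparisons). The two-sided p was the smaller one-sided p doubled, and 0.0571 was the smallest value this convention allows for 3 against 4 libraries. Without virgin WT replicate 1 the virgin differences in share went from -3.63 to -2.31 percentage points in Zeb1_200M and from -3.18 to -1.87 in Zeb1_200H, each with exact permutation p = 0.133, the smallest then possible. On TMM-scaled CPM, which correct for library composition, the differences in share were -7.41 and -6.62 percentage points in virgin Zeb1_200M and Zeb1_200H, and -4.77 and -4.48 in those of the breeding trial. The virgin values rested on WT replicate 1, without which they were -3.42 and -2.76 (exact permutation p = 0.133 each). Groups that did not overlap, with lower values in mutants, were seen for 31 of 678 miRNAs (4.57%) and 32 of 672 (4.76%) in virgin Zeb1_200M and Zeb1_200H. Without WT replicate 1 there were 84 of 703 (11.9%) and 80 of 699 (11.4%). In the breeding trial there were 25 of 276 (9.06%) and 16 of 267 (5.99%).

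Between both mutant genotypes, the mean share of miR-375-3p differed by -0.445 percentage points in the virgin cohort (Zeb1_200M minus Zeb1_200H, exact permutation p = 0.457, adjusted 0.549, n = 4 each). In the breeding trial cohort it differed by 0.175 percentage points (exact permutation p = 0.8, also after adjustment, n = 3 each), where the smallest possible p was 0.1. On TMM-scaled CPM they were -0.766 and -0.111. The virgin value was -0.116 without Zeb1_200H replicate 3, -0.250, -0.257 and -0.841 without Zeb1_200M replicates 2, 3 and 4. Without Zeb1_200M replicate 2 the breeding trial value was -0.342, and it was 0.0202 to 0.549 without any 1 of the other 5 libraries. These differences were within the spread of the libraries.

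Of all miRNAs, miR-375-3p had the largest absolute loss of CPM in each comparison with WT. Its mean fell from 118915 to 82660 CPM in virgin Zeb1_200M and to 87108 CPM in virgin Zeb1_200H, and from 127759 to 97453 and 95702 CPM in those of the breeding trial. The loss came to 24.9% and 23.9% of the summed decreases of all miRNAs in virgin Zeb1_200M and Zeb1_200H, and to 23.8% and 31.0% in the breeding trial. The 10 strands of the miR-200 superfamily, which took 6.02% and 6.33% of reads in virgin and breeding trial WT, together changed by -53307 and -47354 CPM in the virgin cohort and by -55641 and -50493 CPM in the breeding trial.

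Without virgin WT replicate 1, the WT mean of miR-375-3p was 105794 CPM. Its change was then -23133 CPM in Zeb1_200M and -18686 CPM in Zeb1_200H, against -36255 and -31807 CPM with that library. It was still the largest decrease of any miRNA in both comparisons, at 22.9% and 21.6% of the summed decreases.

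Changes were next tested with edgeR (quasi-likelihood F test on TMM-scaled counts, Benjamini-Hochberg adjusted p values across every miRNA in the test, threshold 0.05). Levels of miR-375-3p fell in both genotypes of the breeding trial. In Zeb1_200M the edgeR log2 fold change was -0.62 ± 0.10 (SE), with a 95% confidence interval of -0.83 to -0.41 and adjusted p = 3.13e-05, lower in 3 of 3 libraries than in all 4 WT libraries. In Zeb1_200H it was -0.59 ± 0.09, with an interval of -0.78 to -0.39 and an edgeR adjusted p = 5.30e-05, lower in 3 of 3 libraries. On the linear scale these were decreases of 34.9% and 33.4%, larger than the decreases in share of 23.7% and 25.1%. The TMM factors also differed by genotype, with 0.915 to 0.968 in WT against 1.07 to 1.12 in Zeb1_200M. In the comparison with Zeb1_200H they were 0.930 to 0.967 in WT against 1.06 to 1.08. The fold changes thus depend on this scaling as well as on the reads.

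Calls were common in the breeding trial comparison of Zeb1_200M with WT, where 99 of 276 miRNAs tested (35.9%) passed, and miR-375-3p was the 17th by p value. In the comparison of Zeb1_200H with WT, 32 of 267 (12.0%) passed and miR-375-3p was the 11th. With the replicate number as a block, 47 passed in that comparison, miR-375-3p among them. A log2 fold change lower than that of miR-375-3p was found for 28 and 22 miRNAs, or 10.1% and 8.24% of those tested, so the decrease of miR-375-3p was moderate on the fold scale.

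In the virgin cohort, the edgeR log2 fold change of miR-375-3p was -1.01 ± 0.28 in Zeb1_200M (interval -1.65 to -0.36) and -0.88 ± 0.28 in Zeb1_200H (interval -1.52 to -0.24). Neither passed the threshold, with edgeR adjusted p = 0.0764 and 0.140, although each of the 4 libraries of either genotype had a lower share than all 3 WT libraries. In the main edgeR fit 0 of the 2 arms were called in either comparison, and 1, miR-375-3p, had an unadjusted p below 0.05. That arm was called in both by edgeR without the filter or with a common fit of 3 genotypes, and by DESeq2. With sample weights, limma voom called both arms. The main fit called 44 of 678 miRNAs (6.49%) and 34 of 672 (5.06%) in all. No filter gave 46 and 40, the common fit 90 and 67, DESeq2 87 and 66, and voom 184 and 152. The main totals were 25 to 29 with any 1 of the 4 Zeb1_200M libraries left out, and 21 to 22 with any 1 of the 4 Zeb1_200H libraries left out.

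These virgin values rested on WT replicate 1. Without it, the log2 fold change of miR-375-3p was -0.51 ± 0.09 in Zeb1_200M (interval -0.71 to -0.32) and -0.41 ± 0.08 in Zeb1_200H (interval -0.57 to -0.24), and both passed, with edgeR adjusted p = 0.00167 and 0.00174. The estimate was smaller and its error about as small as in the breeding trial. The number of miRNAs called was then 168 of 703 (23.9%) and 151 of 699 (21.6%), so the call of miR-375-3p was 1 among many. The remaining WT replicates 2 and 4 still lay above all mutant libraries in share.

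**Figure D2:**
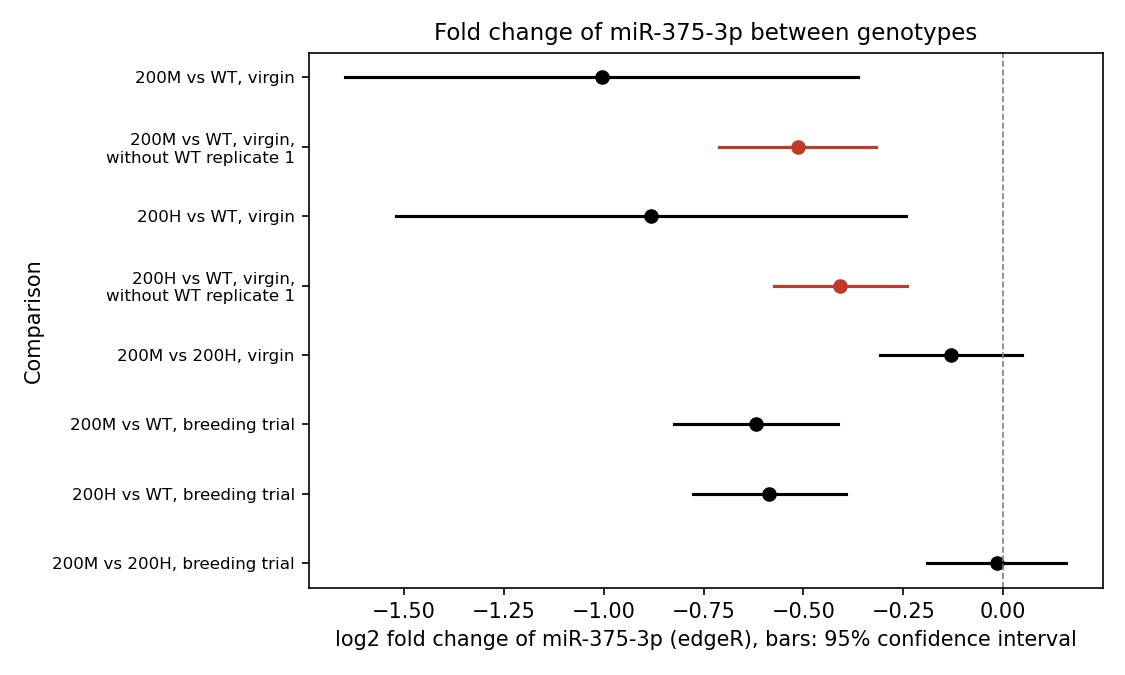
Log2 fold change of miR-375-3p (x axis) in each of the 6 comparisons (y axis), as estimated by edgeR, with 95% confidence intervals as bars. Red points leave out WT replicate 1 of the virgin cohort. The intervals of the comparisons with WT lie below 0, and those between Zeb1_200M and Zeb1_200H include 0. The intervals are not adjusted for the number of miRNAs tested. With all WT libraries, neither virgin comparison with WT passed the adjusted threshold (edgeR adjusted p = 0.0764 and 0.140).

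Between Zeb1_200M and Zeb1_200H, the log2 fold change of miR-375-3p was -0.13 ± 0.08 in the virgin cohort, with an interval of -0.31 to 0.05 (edgeR adjusted p = 0.706). The virgin value was -0.055 without Zeb1_200H replicate 3, and -0.073, -0.077 and -0.20 without Zeb1_200M replicates 2, 3 and 4, none of them called. It was -0.02 ± 0.09 in the breeding trial cohort, with an interval of -0.19 to 0.16 (edgeR adjusted p = 0.952). Its sign turned there without Zeb1_200H replicate 3 (0.046), Zeb1_200M replicate 1 (0.037) or Zeb1_200M replicate 3 (0.0088), and it was -0.086 without Zeb1_200M replicate 2, -0.028 and -0.035 without Zeb1_200H replicates 1 and 4, and -0.13 with the replicate number as a block (edgeR adjusted p = 0.502). miR-375-3p was thus not called there, nor was miR-375-5p in virgin females, where 15 of 675 miRNAs (2.22%) passed. In the breeding trial 3 of 274 (1.09%) passed, and 5 without Zeb1_200M replicate 2. The virgin interval reached as low as -0.31, so a further decrease of that size in Zeb1_200M is within it.

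The difference between cohorts was tested as an interaction in edgeR, over miRNAs listed in both dictionaries. For miR-375-3p, the log2 fold change in the breeding trial minus that in the virgin cohort was 0.30 ± 0.31 for Zeb1_200M (interval -0.36 to 0.97, edgeR adjusted p = 0.914). For Zeb1_200H it was 0.30 ± 0.30 (interval -0.34 to 0.95, edgeR adjusted p = 0.777). Without virgin WT replicate 1 these differences were -0.14 and -0.18. 0 miRNAs passed in either test, with edgeR or DESeq2, while 27 of 485 and 23 of 489 had an unadjusted edgeR p below 0.05 (33 of 1241 and 31 of 1258 with DESeq2). A different response in the 2 cohorts was therefore not detected.

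The passenger arm miR-375-5p was rare. In virgin WT replicates 1, 2 and 4 it had 66, 672 and 585 reads, or 0.0119%, 0.0601% and 0.0599% of the reads of both arms. In virgin Zeb1_200H replicates 1 to 4 it had 516, 483, 626 and 466 reads, or 0.0593%, 0.0578%, 0.0640% and 0.0675%. In virgin Zeb1_200M replicates 1 to 4 it had 506, 455, 347 and 560 reads, or 0.0585%, 0.0622%, 0.0530% and 0.0577%. Except in WT replicate 1, the arms kept a narrow ratio of 1481 to 1887 reads of miR-375-3p for each read of miR-375-5p. In WT replicate 1 the ratio was 8395, and the exact 95% interval of its 5p share, 0.00921% to 0.0152%, lay below those of all other virgin libraries.

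Breeding trial libraries held few reads of miR-375-5p, with 7, 7, 4 and 5 in WT replicates 1 to 4. It had 3, 2 and 4 reads in Zeb1_200H replicates 1, 3 and 4, and 3, 3 and 1 in Zeb1_200M replicates 1, 2 and 3. These counts were too low for the expression filter. Without the filter, the log2 fold change of miR-375-5p was -1.25 ± 0.62 in Zeb1_200M (edgeR adjusted p = 0.203, with an unadjusted p below 0.05) and -0.68 ± 0.58 in Zeb1_200H (edgeR adjusted p = 0.626). DESeq2 gave -1.30 and -0.74, the first without an adjusted p. Neither was called by either tool, with wide errors at so few reads.

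In virgin females miR-375-5p passed the filter. Its log2 fold change was -0.30 ± 0.29 in Zeb1_200M (interval -0.96 to 0.36, edgeR adjusted p = 0.571) and -0.07 ± 0.28 in Zeb1_200H (interval -0.71 to 0.57, edgeR adjusted p = 0.915). Without WT replicate 1 it was -0.57 ± 0.13 in Zeb1_200M (edgeR adjusted p = 0.00820) and -0.36 ± 0.12 in Zeb1_200H (edgeR adjusted p = 0.0521), close to the -0.51 and -0.41 of miR-375-3p. Without WT replicate 2 or 4, the value in Zeb1_200M was -0.13 or -0.11, and that in Zeb1_200H was 0.10 or 0.12, so the sign of the latter rested on single libraries. Without any 1 of Zeb1_200H replicates 1 to 4, the latter was -0.038, -0.019, -0.15 or -0.064. With limma voom and sample weights, which called 184 and 152 miRNAs in all, the values were -0.62 and -0.37, both past the threshold (limma adjusted p = 0.00421 and 0.0375). Between both mutant genotypes it was -0.23 ± 0.11 (interval -0.48 to 0.02, edgeR adjusted p = 0.561), with -0.14 without Zeb1_200H replicate 3 and -0.15 without Zeb1_200M replicate 3.

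**Figure D3:**
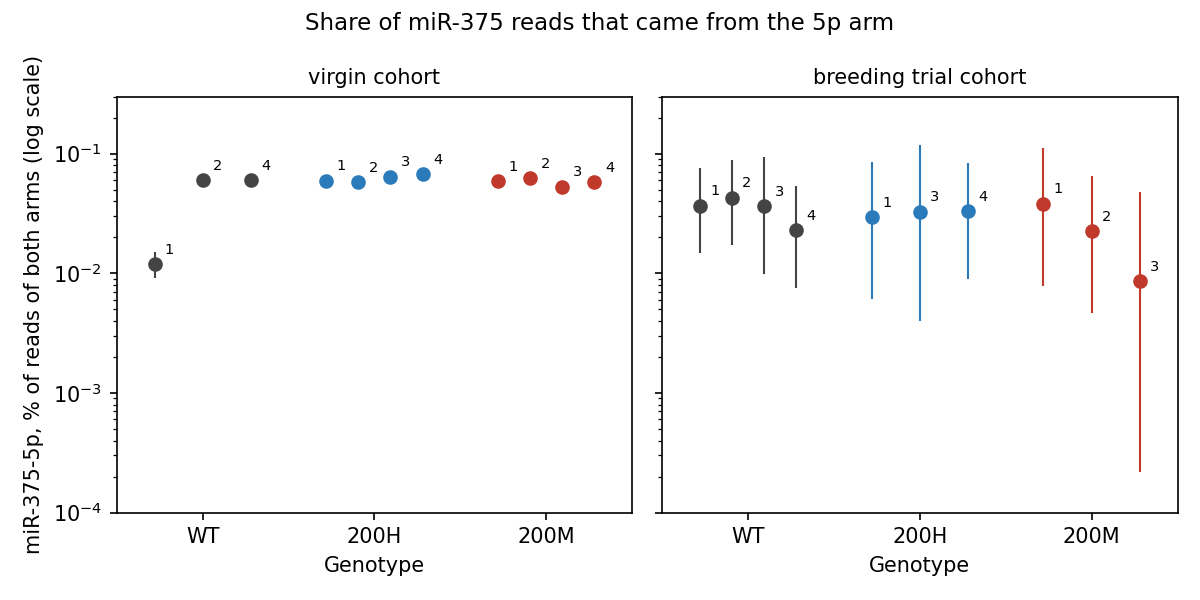
Share of miR-375 reads that came from the 5p arm (y axis, %, log scale) in each library, by genotype (x axis) in the virgin (left) and breeding trial (right) cohorts. Points are libraries with their replicate numbers, and vertical lines are exact 95% binomial intervals. Virgin WT replicate 1 lies at 0.0119%, below the other virgin libraries, and the breeding trial intervals are wide because miR-375-5p had 1 to 7 reads.

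A ratio to another miRNA of the same library needs no scaling. Here miR-7a-5p, which is also known from endocrine cells, served as the partner. In virgin WT replicates 1, 2 and 4 the log2 ratio of miR-375-3p to miR-7a-5p was -0.34, -0.19 and -0.12. It was -0.53, -0.42, -0.37 and -0.65 in Zeb1_200H replicates 1 to 4, and -0.33, -0.69, -0.45 and -0.40 in Zeb1_200M replicates 1 to 4. All Zeb1_200H libraries lay below all WT libraries, and 3 of 4 Zeb1_200M libraries did, the exception being replicate 1.

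Among breeding trial libraries the log2 ratio was -0.11, 0.49, 0.04 and -0.15 in WT replicates 1 to 4. It was -0.55, -0.18 and -0.36 in Zeb1_200H replicates 1, 3 and 4, and -0.28, 0.03 and -0.09 in Zeb1_200M replicates 1, 2 and 3. There too Zeb1_200H was separated from WT, and Zeb1_200M was not, with only 1 of its 3 libraries below all of WT.

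The mean log2 ratio of miR-375-3p to miR-7a-5p in Zeb1_200H differed from WT by -0.28 in the virgin and -0.43 in the breeding trial cohort, each with a two-sided exact permutation p = 0.0571 (0.171 after adjustment over the 6 comparisons). In Zeb1_200M the differences were -0.25 (exact permutation p = 0.114, adjusted 0.229) and -0.18 (exact permutation p = 0.514, adjusted 0.617). Between Zeb1_200M and Zeb1_200H they were 0.02 (exact permutation p = 0.771) and 0.25 (exact permutation p = 0.2), the former being -0.031 without Zeb1_200H replicate 4 and -0.024 without Zeb1_200M replicate 1, and the latter 0.16 without Zeb1_200H replicate 1. Without WT replicate 1 the virgin differences from WT were -0.32 in Zeb1_200M and -0.34 in Zeb1_200H, each with exact permutation p = 0.133, the smallest then possible. Without WT replicate 2 the breeding trial difference of Zeb1_200M was -0.037 and that of Zeb1_200H -0.29, and without Zeb1_200M replicate 1 the former was -0.097.

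The result depended on the partner. Against let-7c-5p, the virgin log2 ratio of miR-375-3p differed from WT by -0.53 in Zeb1_200M (exact permutation p = 0.0571) and -0.42 in Zeb1_200H (exact permutation p = 0.114). Against the sum of miR-7a-5p and miR-7b-5p it differed by -0.39 in each (exact permutation p = 0.0571). Without WT replicate 1 these were -0.39 and -0.27 against let-7c-5p (exact permutation p = 0.133 and 0.267), and -0.38 in each against the sum (exact permutation p = 0.133). For breeding trial libraries that sum gave -0.25 in Zeb1_200M (exact permutation p = 0.229) and -0.47 in Zeb1_200H (exact permutation p = 0.0571). Virgin Zeb1_200M was thus separated from WT with both other partners, and breeding trial Zeb1_200M overlapped WT with miR-7a-5p alone or in the sum. In that comparison miR-7a-5p itself fell (log2 fold change -0.45, edgeR adjusted p = 0.00174), and no partner without it was tried in the breeding trial.

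Among the 10 most abundant miRNAs of WT in each cohort, miR-375-3p had the lowest log2 fold change in each of the 4 comparisons with WT. Their median was -0.51 and -0.49 in virgin Zeb1_200M and Zeb1_200H, where edgeR called 0 of 10 and 3 and 2 had an unadjusted p below 0.05. Over all miRNAs tested there, miR-375-3p ranked 59th of 678 and 61st of 672 by edgeR p (unadjusted p = 0.00665 and 0.0127). At least that many miRNAs thus had an unadjusted p below 0.05. Without WT replicate 1 these medians were -0.07 and -0.07, and in both comparisons miR-375-3p was called lower and miR-29b-3p higher, beside 74 of 703 and 77 of 699 of all miRNAs lower and 94 and 74 higher. The medians of the breeding trial were -0.18 and -0.04. In Zeb1_200M of the breeding trial, 3 of the 10 were called lower, miR-375-3p, miR-7a-5p and miR-125a-5p, and 2 higher, miR-29b-3p and miR-125b-5p, beside 43 and 56 of all 276 miRNAs tested. In Zeb1_200H of the breeding trial, miR-375-3p was the only one of the 10 called, beside 19 of 267 lower and 13 higher. miR-7a-5p had a log2 fold change of -0.45 ± 0.11 in that Zeb1_200M comparison (edgeR adjusted p = 0.00174) and -0.16 ± 0.10 in Zeb1_200H (edgeR adjusted p = 0.331).

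miR-375-3p was set beside 12 miRNAs known to be enriched in endocrine or epithelial cells, among them miR-7a-5p, the miR-200 superfamily and miR-183-5p. In virgin females these gave 13 entries, since miR-183-5p has 2 isoforms in that dictionary. In Zeb1_200M, 9 of 13 were called lower and 0 higher (median log2 fold change -2.36, against 0.00 over all miRNAs tested), and in Zeb1_200H, 9 of 13 were called lower (median -1.75, against 0.01). For the breeding trial the counts were 9 of 12 (median -1.89) and 8 of 12 (median -2.0), again with medians of 0.00 over all miRNAs tested. Over all miRNAs tested, 26 of 678, 23 of 672, 43 of 276 and 19 of 267 were called lower in these 4 comparisons. Without virgin WT replicate 1 they were 10 and 9 of 13 (medians -2.25 and -1.64, against 0.04 and 0.01), where 74 of 703 and 77 of 699 of all miRNAs were called lower. Called lower were miR-141-3p, miR-200a-3p, miR-429-3p, miR-200b-3p, miR-96-5p, miR-200c-3p, miR-182-5p and miR-183-5p in each of the 4 comparisons, joined by miR-7a-5p in Zeb1_200M of the breeding trial. Between Zeb1_200M and Zeb1_200H, 7 of 13 entries were called lower in virgin females and 2 of 11 in the breeding trial, beside 10 of 675 and 2 of 274 of all miRNAs. With a common fit of 3 genotypes, only 5 miRNAs were called in all in that virgin comparison, so these 7 entries did not all pass there. Of the called entries, only miR-7a-5p, and miR-184-3p in virgin Zeb1_200M without WT replicate 1, were outside the miR-200 superfamily and miR-96-5p, miR-182-5p and miR-183-5p. With the superfamily, to which the allele is resistant, left out of the list, 4 of 8 (median -1.70) and 4 of 8 (median -1.10) were called lower in virgin females. In the breeding trial there were 4 of 7 (median -0.71) and 3 of 7 (median -0.16). Without virgin WT replicate 1 there were 5 of 8 (median -1.17) and 4 of 8 (median -0.77). The 4 called virgin entries were miR-96-5p, miR-182-5p and both isoforms of miR-183-5p, members of a single miRNA cluster, so they are not separate lines of support. In virgin Zeb1_200M and Zeb1_200H, miR-7a-5p was at -0.79 and -0.64 and miR-7b-5p at -0.16 and -0.07. Leaving out WT replicate 1, they were at -0.20 and -0.07, and at 0.01 and 0.08, none of them called. The fall of miR-375-3p was far smaller than that of miR-200a-3p, whose log2 fold changes in the breeding trial were -2.94 and -2.80, while the list also held miR-153-3p, at 0.15 and 0.01, which was not called.

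Markers of other cells were set beside miR-375-3p as summed levels. The 9 markers of nerve tissue, which includes the posterior lobe, summed to 3200, 6517 and 7020 CPM in virgin WT replicates 1, 2 and 4. They summed to 9679 to 10765 CPM in virgin Zeb1_200H and 10329 to 14037 CPM in virgin Zeb1_200M. Breeding trial sums were 7718 to 9293 CPM in WT, 12626 to 14409 CPM in Zeb1_200H and 18657 to 18867 CPM in Zeb1_200M. The groups of mutants lay above WT throughout, and the lowest sum was again that of virgin WT replicate 1. Of the mean sums, miR-124-3p made up 19.6%, 39.7% and 49.4% in virgin WT, Zeb1_200H and Zeb1_200M, and 14.0%, 31.0% and 42.6% in those of the breeding trial. Without it, virgin Zeb1_200M overlapped WT (5563 to 6885 against 2643 to 5591 CPM), while the other 3 mutant groups still lay above WT.

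Over all genotypes together, the most abundant nerve marker was miR-124-3p, at a mean of 3206 CPM for its main isoform in virgin and 4171 CPM in breeding trial libraries. These means mixed unlike genotypes: summed over isoforms, miR-124-3p had 1094 and 1217 CPM in virgin and breeding trial WT, and 6234 and 8004 CPM in Zeb1_200M. In all libraries together, 0 markers were at 0 throughout. miR-124-3p had log2 fold changes of 2.47 and 1.64 in Zeb1_200M and Zeb1_200H of the breeding trial (edgeR adjusted p = 4.96e-14 and 6.22e-08). Called higher were 4 of 8 tested nerve markers in Zeb1_200M of the breeding trial and 1 of 8 in Zeb1_200H, with 1 (miR-129-5p) and 0 called lower. Beside these, 56 of 276 and 13 of 267 of all miRNAs tested were called higher, and 35.9% and 12.0% in either direction. With TMM computed without the miR-200 superfamily, 5 rather than 4 were called higher in Zeb1_200M. In the virgin cohort 2 of 10 entries, both isoforms of miR-124-3p, were called higher in each genotype, against 18 of 678 and 11 of 672 of all miRNAs. An unadjusted p below 0.05 was found for 5 of 10 in virgin Zeb1_200M, of which miR-219a-5p (-0.76) and miR-129-5p (-0.40) had negative log2 fold changes. In virgin Zeb1_200H it was found for 3 of 10, all positive. The same was not counted over all miRNAs, so counts by unadjusted p here and below are a description only. When WT replicate 1 was left out, 5 of 10 were called higher, with 1 and 0 called lower, while of all miRNAs 94 of 703 and 74 of 699 were called higher. The medians over the list were 0.35 and 0.36 (virgin) and 0.41 and 0.27 (breeding trial), and between Zeb1_200M and Zeb1_200H only miR-124-3p was called, higher in both cohorts.

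Of 7 vessel and stroma markers, led by miR-126a-3p, all are in the virgin dictionary and 6 in that of the breeding trial. They summed to 10243 to 10699 CPM in WT of the breeding trial, 12942 to 14369 CPM in Zeb1_200H and 14730 to 16244 CPM in Zeb1_200M. Virgin WT, Zeb1_200H and Zeb1_200M libraries had sums of 8123 to 8944, 9362 to 11275 and 9649 to 12604 CPM. Of those tested, 4 of 6 and 0 of 5 were called higher in Zeb1_200M and Zeb1_200H of the breeding trial, and 1 of 8 and 0 of 8 in the virgin cohort by edgeR, beside 56 of 276, 13 of 267, 18 of 678 and 11 of 672 of all miRNAs. Size factors in place of TMM gave 0 of 8 in virgin Zeb1_200M, and leaving out WT replicate 1 gave 2 and 1 of 8, where 94 of 703 and 74 of 699 of all miRNAs were called higher. An unadjusted p below 0.05 was found for 1 of 5 and 1 of 8 in Zeb1_200H of the breeding trial and virgin cohorts, and for 1 of 8 in virgin Zeb1_200M. Medians were 0.36 and 0.23 (breeding trial) and 0.27 and 0.19 (virgin). The summed CPM of WT and mutant libraries did not overlap, but on TMM-scaled CPM they did in the virgin cohort, where WT replicate 1 had the highest sum (12970 and 12791 in its 2 comparisons). There the main isoform of miR-126a-3p had log2 fold changes of -0.22 and -0.26, and 0.21 and 0.15 without that library, none of them called.

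Of 7 blood markers, led by miR-451a, all are likewise in the virgin dictionary and 6 in the other. They summed to 6326 to 9233 CPM in WT of the breeding trial, 7827 to 9627 CPM in Zeb1_200H and 8840 to 12646 CPM in Zeb1_200M. In virgin WT, Zeb1_200H and Zeb1_200M they summed to 6065 to 10990 CPM, 9699 to 20452 CPM and 10797 to 12693 CPM. These ranges overlapped between WT and mutants. Of those tested, edgeR called 3 of 6 higher in Zeb1_200M of the breeding trial, where 56 of 276 of all miRNAs were, and 0 in the other 3 comparisons with WT, in each of which 2 had an unadjusted p below 0.05. Without virgin WT replicate 1, edgeR called 1 and 2 of 8 higher, beside 94 of 703 and 74 of 699 of all miRNAs. Medians were 0.52 and 0.17 (breeding trial) and 0.19 and 0.37 (virgin). Whether RNA of nerve, vessel or blood cells takes part in the lower share of miR-375-3p was not tested.

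Finally, the 5 miRNAs most like miR-375-3p across all 21 libraries were those whose log2 count, less that of miR-375-3p, had the smallest SD within each cohort, averaged over both (153 miRNAs compared, median SD 0.48). They were miR-335-5p (SD 0.17), miR-335-3p (0.20), miR-541-5p (0.20), miR-181a-5p (0.20) and miR-7a-5p (0.23). Since they were chosen for following miR-375-3p in these libraries, similar fold changes come with the choice. Beside -0.62 and -0.59 for miR-375-3p, the breeding trial log2 fold changes in Zeb1_200M and Zeb1_200H were -0.71 and -0.48 for miR-335-5p, -0.56 and -0.72 for miR-335-3p, and -0.64 and -0.55 for miR-181a-5p. They were -0.54 and -0.18 for miR-541-5p and -0.45 and -0.16 for miR-7a-5p, both called in Zeb1_200M only. In virgin Zeb1_200M and Zeb1_200H, where miR-375-3p was at -1.01 and -0.88 and not called, edgeR called miR-335-3p (-0.84 and -0.83) and miR-181a-5p (-1.20 and -1.35). The others were not called there, with miR-335-5p at -1.13 and -1.14 and miR-541-5p at -0.83 and -0.77. With WT replicate 1 left out, the values were -0.60 and -0.63 for miR-335-5p, -0.73 and -0.75 for miR-335-3p, -0.67 and -0.84 for miR-181a-5p and -0.47 and -0.44 for miR-541-5p, all called lower. The choice depended on virgin WT replicate 1: without it 2 of the 5, miR-335-3p and miR-335-5p, were among the 5 most alike, and miR-7a-5p came 27th.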

How the data were processed

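Raw counts per miRNA, as deposited by the authors, were used from 6 tables (11 virgin and 10 breeding trial libraries). The authors trimmed reads with cutadapt, matched their first 19 nt (virgin) or 18 nt (breeding trial) to a miRNA dictionary and removed size standards and spike-ins. A further 42 columns of size-factor scaled counts, and the authors' DESeq2 columns (means, fold changes, errors, statistics and p values), were not used. The labels give 0.5 μg of RNA per breeding trial library and 3 μg per virgin library, for which the study's methods give another amount. Each library deposited more than once had identical counts.

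Pairs of genotypes were compared within a cohort by the quasi-likelihood F test of edgeR (4.0.16, under R 4.3.3), after TMM scaling and the default expression filter (about 10 reads in as many libraries as the smaller group has, and 15 in total). SEs were derived from the F statistic. Shares and ratios were compared by two-sided exact permutation tests, with the smaller one-sided p doubled. The smallest possible p values given here follow from that convention. The model was checked on simulated counts. The miRNAs named were those beginning with miR-375, lists of endocrine, nerve, blood and vessel miRNAs, the 10 most abundant in WT, and the 5 most alike (mean count of at least 50 in both cohorts, pseudocount 0.5). Members and lists were chosen with earlier results of these data known. Alternatives were DESeq2 1.42.0, its size factors, TMM leaving out the miR-200 superfamily, counts without a filter, a common fit of 3 genotypes, limma 3.58.1 (voom with sample weights), the replicate number as a block, other denominators and references, a minimum of 500, and leaving out each library.

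Replicate numbers come from the sample titles. Same-numbered WT and Zeb1_200H libraries deviated together in the breeding trial (r = 0.158, 0.221 and 0.308), where a replicate block gave miR-375-3p a log2 fold change of -0.53. They did not in each pair of the other comparisons.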

Additional observations from a re-analysis of the deposited data

How the results depend on the processing

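For the breeding trial, the fall of miR-375-3p passed under all 7 other settings and with any library left out, with log2 fold changes between -0.71 and -0.53 in both genotypes. In virgin females its direction held throughout, but the call did not. In Zeb1_200M and Zeb1_200H, DESeq2 gave -1.01 and -0.87, no filter -0.90 and -0.80, the common fit -1.0 and -0.88, and limma voom with sample weights -0.60 and -0.45, all past the threshold (adjusted p from 0.00105 to 0.0399), whereas other scalings and the replicate block gave adjusted p from 0.0752 to 0.408. With a library left out they ranged from -1.19 to -0.51 and from -1.07 to -0.41, past the threshold only without WT replicate 1. For miR-375-5p, voom gave -0.62 and -0.37, both past the threshold, and leaving out a library -0.57 to -0.11 and -0.36 to 0.12. The numbers of miRNAs called, 44 and 34, became 87 and 66 with DESeq2, 90 and 67 with the common fit, 184 and 152 with voom, and 25 to 168 and 21 to 151 with a library left out. With the replicate block they were 20 and 18, where the numbers did not pair the libraries. The block changed no call of miR-375-3p.

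Between Zeb1_200M and Zeb1_200H small differences changed sign. There, in the breeding trial, the log2 fold change was 0.011 with voom, -0.13 with the replicate block and -0.086 to 0.046 with a library left out, and the difference in share was -0.111 on TMM-scaled CPM and -0.342 to 0.549 with a library left out. The virgin log2 ratio difference was -0.11 against let-7c-5p and -0.031 to 0.098 with a library left out. Called miRNAs were 5 in virgin females with the common fit, and in the breeding trial 5 with voom or the replicate block and 3 to 5 with a library left out. Without virgin WT replicate 1 the cohort differences were -0.14 and -0.18. The ratio to let-7c-5p was not run in the breeding trial. Of the 5 most alike miRNAs, 3 were kept at a minimum of 500 counts and, in a setting chosen after seeing the data, 2 without virgin WT replicate 1. The list counts, summed decreases, groups without overlap, TMM-scaled shares, ratios to other partners and 10 most abundant miRNAs without that library, marker sums on TMM-scaled CPM, nerve sums without miR-124-3p and the endocrine list without the miR-200 superfamily were also chosen after seeing the data. The cause of these shifts was not tested. In the breeding trial miR-375-5p had few reads.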
